A study of Mus musculus with 8 samples.

Results

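Transcripts for 5 proteins of the basolateral sodium and potassium machinery of the nephron were followed in mouse renal cortex: Atp1b1, Fxyd2, Fxyd4, Kcnj10 and Kcnj16. They were taken by gene symbol, each symbol matched 1 row, and all 5 of the 35275 genes listed had enough counts to be tested. Cortex was taken at postnatal day 7 from 4 Cre-negative control mice and 4 mice of the line named Six2-Tfam knockout, with 1 library per mouse number. Six2 is a gene of nephron progenitors, so a Cre under its control deletes in the nephron epithelium and not in the collecting duct, vessels or stroma, and Tfam encodes a protein that packages and transcribes mitochondrial DNA. No group carried Cre without the deletion, so effects of Cre and of Tfam loss cannot be told apart. Whether mice of a group came from separate litters is not given, and p-values measure the spread between these mice.

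The sodium pump sits in the basolateral membrane of tubule cells and exports sodium in exchange for potassium, which drives most reabsorption. It is built from a catalytic alpha chain, a beta chain that the alpha chain needs for folding and delivery to the membrane (Atp1b1), and a small FXYD protein that tunes its affinity for its ions. Potassium taken up by the pump leaves again through channels in the same membrane, and in the distal convoluted tubule these are made from the products of Kcnj10 (Kir4.1) and Kcnj16 (Kir5.1). In humans, loss of KCNJ10 causes a salt-wasting tubulopathy and a dominant FXYD2 mutation causes loss of magnesium.

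Counted reads per library ranged from 15597762 to 20417550. Tfam mRNA, the deleted gene, was at 53.1 ± 2.96 CPM (counts scaled to library size with TMM factors) in controls and 27.0 ± 0.465 CPM in mutants (SD, n = 4). Mitochondrially encoded transcripts took 3.88 to 9.28% of counts in controls and 1.15 to 1.84% in mutants. Sex-linked transcripts did not match between the groups: 3 mutants, Mut1393, Mut1453 and Mut1454, had from 4294 to 4915 counts of 4 Y-linked genes, while Mut1819 had 27 and the controls at most 3. Fits with a term for Y-linked counts, and Mut1819 alone against the 4 controls, are therefore given for the 5 transcripts. The term is yes or no, with yes for more than 100 counts of these Y-linked genes, so Mut1819 is grouped with the controls. Fits with the term are also given for some other genes and lists. In both kinds of fit the comparison rests on Mut1819, so they are not separate checks. For the other 3 mutants, sex and genotype cannot be told apart. Mouse numbers fall in a 1300, a 1400 and an 1800 range, and what the ranges stand for is not given. Mouse by mouse, values are in the order Con1391, Con1452, Con1822, Con1823, then Mut1393, Mut1453, Mut1454, Mut1819.

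Of the 5 transcripts, 4 were lower in mutants: Kcnj16 fell most, Kcnj10 and Fxyd2 fell by about equal amounts, and Fxyd4 fell least, while Atp1b1 did not pass the test. Every mutant lay below every control for Fxyd2, Fxyd4, Kcnj10 and Kcnj16. Across the transcriptome 46.2% of 15028 tested genes changed at an adjusted p of 0.05, 23.5% upward and 22.7% downward, and 20.8% had every mutant below every control, so a fall is frequent among all genes. Log2 fold changes are mutant over control, from edgeR's quasi-likelihood test with Benjamini-Hochberg adjustment over all tested genes. In whole cortex, fewer cells of a type and less RNA per cell cannot be told apart.

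Atp1b1 (ENSMUSG00000026576, mm10 chromosome 1, 164437109 to 164458355, minus strand) encodes the beta chain. Its level was 2179, 2220, 2358 and 2301 CPM in controls and 1871, 2364, 2347 and 1788 CPM in mutants. The groups overlapped, since Mut1453 and Mut1454 stood at the top of the control range while Mut1393 and Mut1819 stood below it. The log2 fold change was -0.11 (SE 0.10, adjusted p = 0.360), with a 95% interval from -0.32 to 0.10. The spread was 306 CPM in mutants and 80.4 CPM in controls (SD, n = 4). With the term for Y-linked counts the log2 fold change was -0.34 (adjusted p = 0.0992), and with Mut1819 alone it was -0.34 (adjusted p = 0.0693).

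Fxyd2 (ENSMUSG00000059412, chromosome 9, 45399669 to 45410278, plus strand) encodes the gamma subunit, the FXYD protein of the proximal tubule, thick limb and distal convoluted tubule. Controls had 1072, 1100, 861 and 963 CPM and mutants 603, 742, 730 and 620 CPM. No mutant reached the lowest control, Con1822. The log2 fold change was -0.57 (SE 0.10, adjusted p = 0.000471), a level that fell by 32.5%. With the term for Y-linked counts it was -0.69 (adjusted p = 0.00869), and with Mut1819 alone -0.69 (adjusted p = 0.0108).

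Fxyd4 (ENSMUSG00000004988, chromosome 6, 117933559 to 117937692, minus strand) encodes CHIF, the FXYD protein of the collecting duct, a segment that does not arise from Six2-positive progenitors. It was the least abundant of the 5 in counts, with 394, 375, 310 and 389 reads in controls and 384, 317, 360 and 315 in mutants. Scaled for depth, these were 24.9, 22.5, 19.7 and 23.5 CPM against 18.7, 18.3, 17.5 and 17.3 CPM. The lowest control, Con1822, lay just above the highest mutant, Mut1393, so the groups did not overlap. The log2 fold change was -0.33 (SE 0.08, adjusted p = 0.00662), with a 95% interval from -0.52 to -0.15. The call ended with the term for Y-linked counts (log2 fold change -0.39, adjusted p = 0.0656) and with Mut1819 alone (-0.39, adjusted p = 0.0910), fits in which 1 mutant carries the comparison.

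Kcnj10 (ENSMUSG00000044708, chromosome 1, 172341210 to 172374085, plus strand) encodes Kir4.1, the channel subunit whose loss depolarises the distal convoluted tubule. Controls had 115, 113, 133 and 122 CPM, and mutants had 68.0, 94.2, 93.2 and 69.5 CPM. As for Atp1b1, Mut1453 and Mut1454 were above Mut1393 and Mut1819, but here all 4 were below the controls. The log2 fold change was -0.57 (SE 0.11, adjusted p = 0.00100), and -0.80 (adjusted p = 0.00513) with the term for Y-linked counts. With Mut1819 alone it was -0.80 (adjusted p = 0.00125).

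Kcnj16 (ENSMUSG00000051497, chromosome 11, 110968033 to 111027968, plus strand) encodes Kir5.1, which forms channels with Kir4.1 in the distal nephron and with Kir4.2 in the proximal tubule. Controls had 430, 537, 384 and 442 CPM and mutants 270, 274, 247 and 203 CPM. The highest mutant, Mut1453, stayed well under the lowest control, Con1822. The log2 fold change of -0.85 (SE 0.11, adjusted p = 7.37e-05) means that the level fell by 44.5%. It was -1.14 with the term for Y-linked counts (adjusted p = 0.000488) and -1.14 with Mut1819 alone (adjusted p = 0.00174).

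**Figure D1:**
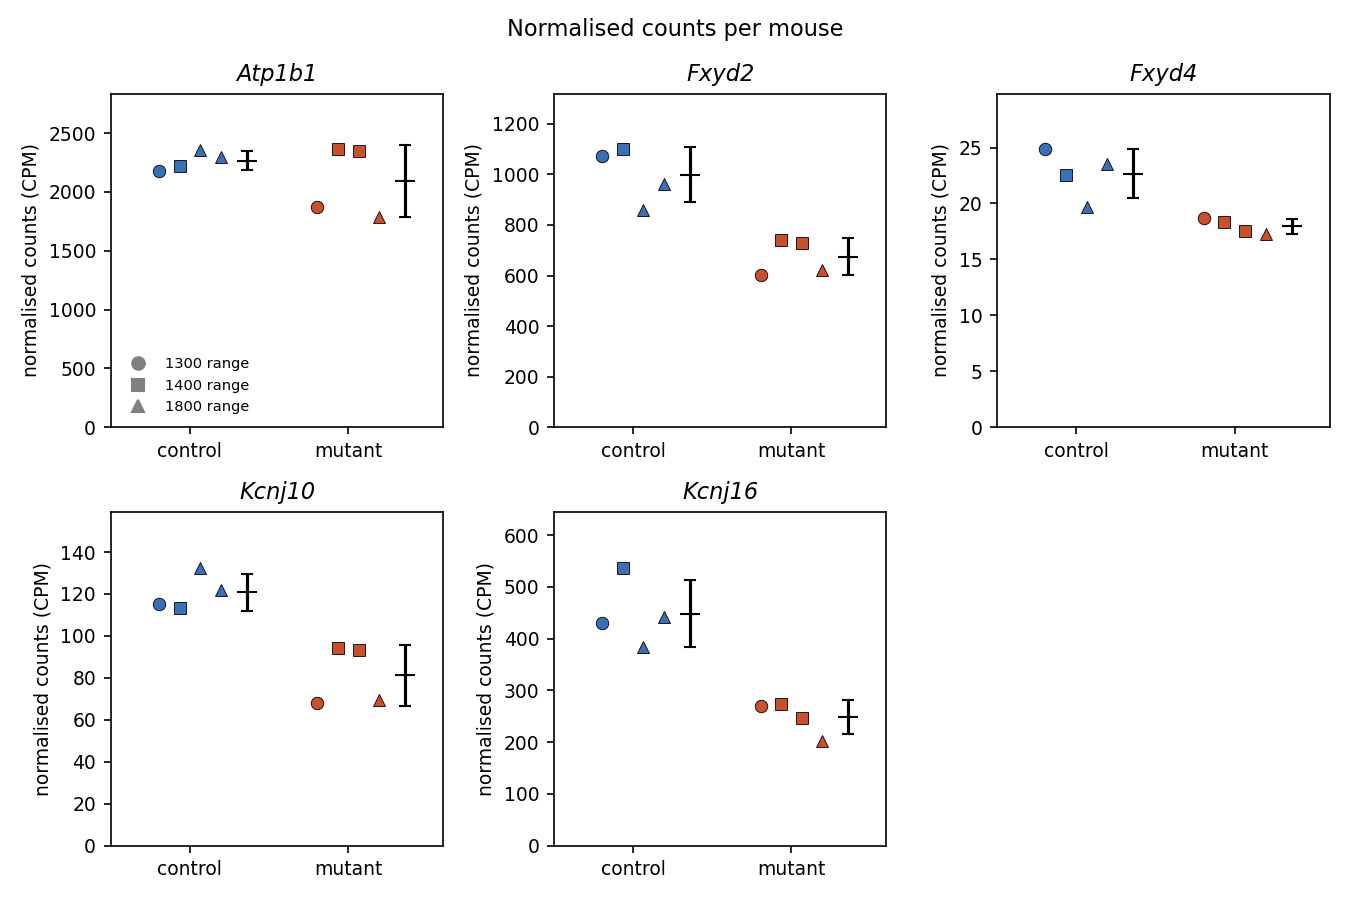
Normalised counts (CPM, y axis from 0) of the 5 transcripts in each mouse, by group, with marker shape for the range of the mouse number and bars for the mean and SD of 4 mice. All mutants lie below all controls for Fxyd2, Fxyd4, Kcnj10 and Kcnj16, and the groups overlap for Atp1b1.

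Together the 5 transcripts made up 0.376, 0.370, 0.379 and 0.375% of counts in controls and 0.291, 0.356, 0.345 and 0.283% in mutants. The mean share was 0.375% ± 0.00367 in controls and 0.319% ± 0.0370 in mutants (SD, n = 4), and Atp1b1 and Fxyd2 hold most of it. The exact two-sided permutation p was 0.0286, the lowest possible with 4 mice per group.

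Levels of different genes were compared on the deposited FPKM scale, which divides by gene length. In controls the mean FPKM was 1535 for Fxyd2, 911 for Atp1b1, 167 for Kcnj16, 21.8 for Kcnj10 and 18.4 for Fxyd4, and these ranked 21, 41, 578, 5388 and 6050 among all genes listed. The control values of Kcnj10 (19.5 to 24.7 FPKM) and Fxyd4 (16.6 to 20.4 FPKM) overlapped as groups, though Kcnj10 was above Fxyd4 in each of the 4 mice. The lengths behind these values were 2422 bases for Atp1b1, 632 for Fxyd2, 1199 for Fxyd4, 5407 for Kcnj10 and 2604 for Kcnj16, against 3081, 4005, 1957, 5407 and 3936 bases for all annotated exons of GENCODE M21. With the latter lengths, a choice made after the data were seen, Fxyd2 had 242 FPKM and Atp1b1 716 FPKM in controls, so the order of these genes depends on the length used. Kcnj10 and Fxyd4 kept their order, at 21.8 ± 2.23 and 11.3 ± 1.05 FPKM (SD, n = 4). Differences between mutants and controls do not depend on it.

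The 5 transcripts were also compared with each other over 10 pairs. None passed after adjustment in the exact permutation test, with 4 at an unadjusted p of 0.0286 (0.0714 adjusted over the 10). That p is the lowest possible with 4 mice per group, so these 4 pairs alone could not pass. A missed threshold here does not show equal ratios. These were the ratios of Atp1b1 to Fxyd2, to Kcnj10 and to Kcnj16, which were 1.36, 1.38 and 1.65 times as high in mutants (geometric means), and of Fxyd4 to Kcnj16, 1.43 times as high. In each of these 4 pairs the groups did not overlap, which is what the lowest possible p means here. The ratio of Atp1b1 to Kcnj10 was 42.2, 43.7, 39.7 and 42.2 in controls and 61.4, 56.0, 56.2 and 57.4 in mutants. Mut1393 and Mut1819, low for both genes, had the highest ratios. The ratio of the channel subunits, Kcnj10 to Kcnj16, ranged from 0.102 to 0.166 in controls and from 0.121 to 0.182 in mutants (log2 difference 0.26, exact p = 0.314). Fxyd2 to Kcnj10 ranged from 55.6 to 82.9 and from 67.0 to 76.3 (log2 difference 0.02, exact p = 0.971).

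**Figure D2:**
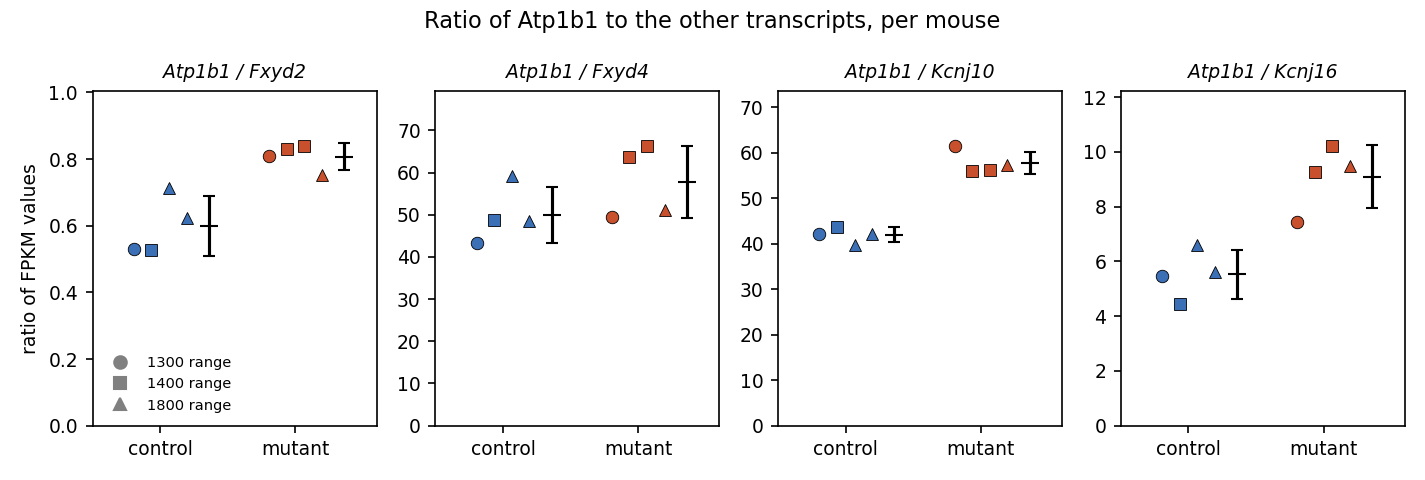
Ratio of the FPKM of Atp1b1 to that of each of the other 4 transcripts in each mouse (y axis from 0, a scale per panel), with marker shape for the range of the mouse number and bars for the mean and SD of 4 mice. The 4 mutants lie above the 4 controls for Fxyd2, Kcnj10 and Kcnj16, and the groups overlap for Fxyd4.

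Promoter sequences of RefSeq on GRCm38.p6, from 250 bases before to 50 after a start, matched Atp1b1, Fxyd4, Kcnj10 and Kcnj16, with 4 starts for Kcnj16. They are shown for Atp1b1, the beta chain that did not pass the test, and for both channel genes, which fell, with CpG dinucleotides in capitals. Atp1b1 lies at chr1:164458306-164458605 on the minus strand, Kcnj10 at chr1:172340960-172341259 on the plus strand and the first start of Kcnj16 at chr11:110967783-110968082 on the plus strand.
Atp1b1: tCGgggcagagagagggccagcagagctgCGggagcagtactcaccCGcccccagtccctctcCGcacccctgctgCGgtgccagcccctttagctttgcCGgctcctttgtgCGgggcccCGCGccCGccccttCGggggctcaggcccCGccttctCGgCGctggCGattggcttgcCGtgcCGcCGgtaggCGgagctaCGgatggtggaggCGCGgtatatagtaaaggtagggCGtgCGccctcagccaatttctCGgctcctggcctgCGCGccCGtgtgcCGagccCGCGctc
Kcnj10: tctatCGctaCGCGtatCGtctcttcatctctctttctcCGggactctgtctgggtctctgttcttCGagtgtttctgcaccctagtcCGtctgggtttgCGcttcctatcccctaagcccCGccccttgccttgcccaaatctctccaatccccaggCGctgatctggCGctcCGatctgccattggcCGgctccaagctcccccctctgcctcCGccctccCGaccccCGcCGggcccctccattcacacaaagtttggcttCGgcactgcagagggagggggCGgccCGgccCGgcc
Kcnj16: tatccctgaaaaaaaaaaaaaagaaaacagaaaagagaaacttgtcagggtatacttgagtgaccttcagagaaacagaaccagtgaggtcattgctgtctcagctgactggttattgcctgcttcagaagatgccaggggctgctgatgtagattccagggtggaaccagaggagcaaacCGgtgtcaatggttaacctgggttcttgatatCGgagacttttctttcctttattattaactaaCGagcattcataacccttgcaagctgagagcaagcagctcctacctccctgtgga
The windows hold 31 CpG for Atp1b1, 21 for Kcnj10 and 3 for Kcnj16, beside a median of 7 over 32851 mouse promoter windows, and their GC content is 71.0, 63.7 and 44.3%. The windows of the other Kcnj16 starts hold 8, 5 and 1 CpG, so its starts lie on both sides of that median. The Fxyd4 window holds 5 CpG. Motifs were searched on both strands in the 7 windows of these genes: TCAAGGTCA for estrogen-related receptors and CAAAGTCCA for HNF4. Of the 7, 0 hold either of these letters, which occur in 0.423 and 0.475% of all windows. Neither motif contains the other.

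Of 8 other pump and FXYD genes, 6 were tested, 1 rose, 1 fell and 4 missed the threshold, beside 46.2% called among all tested genes. Their median log2 fold change was 6.26e-05, beside -0.00078 for all tested genes. Atp1b3, a beta chain made in many tissues, rose from 142 ± 4.95 to 159 ± 5.78 CPM (log2 fold change 0.16, adjusted p = 0.0237). Atp1b2, the beta chain known from glia, fell from 43.6 ± 3.64 to 32.0 ± 1.45 CPM (log2 fold change -0.44, adjusted p = 0.000318). With the term for Y-linked counts Atp1b2 passed (adjusted p = 0.0248) and Atp1b3 did not (adjusted p = 0.387). Atp1b3 also missed the threshold without Con1452, Mut1453 or Mut1454, with an adjusted p of at most 0.0686. The muscle markers Acta1, Ckm, Myh1, Myh4 and Tnnt3 summed to at most 2.53 CPM in any mouse, with Myh4 at 0.

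The remaining FXYD genes did not pass. Fxyd6, whose gene precedes Fxyd2 on the same strand of chromosome 9, was at 40.0 ± 6.49 and 36.2 ± 6.21 CPM (log2 fold change -0.15, adjusted p = 0.409). Fxyd5, or dysadherin, was at 9.90 ± 1.26 and 10.8 ± 1.88 CPM, and Fxyd1, or phospholemman, at 6.55 ± 1.13 and 7.30 ± 0.262 CPM. Fxyd7, known from neurons, averaged 1.06 and 0.956 CPM. Atp1a4, the testis alpha chain, with 13 and 2 counts over the groups, and Fxyd3, with 7 and 6, were not tested.

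**Figure D3:**
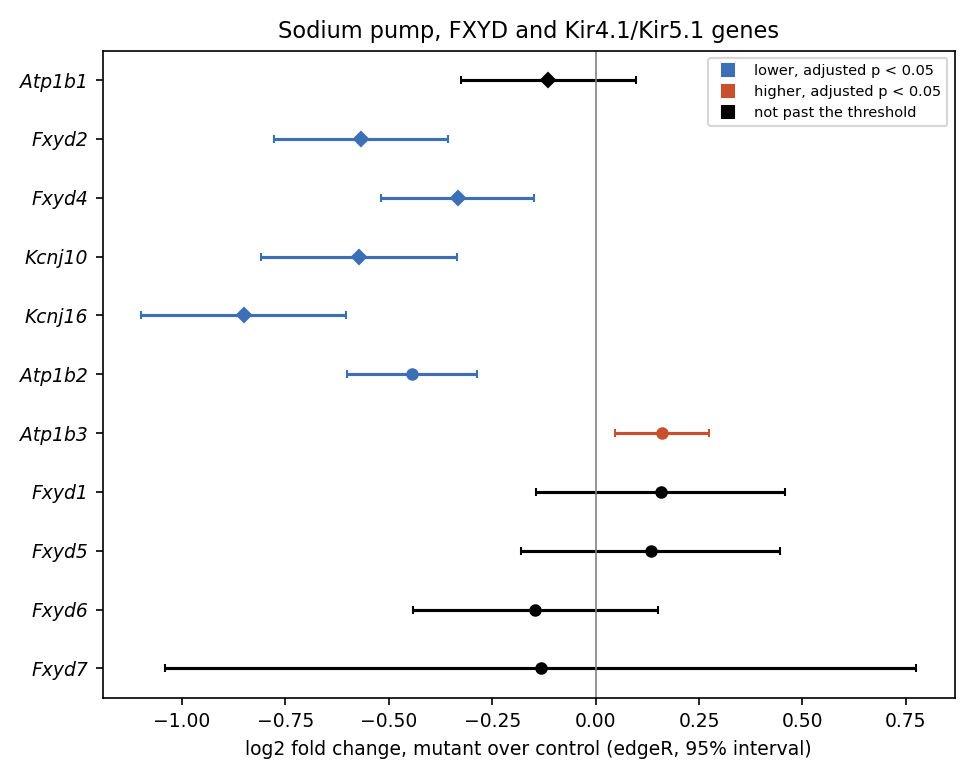
Log2 fold change (x axis, mutant over control) with the 95% interval of edgeR, diamonds for the 5 transcripts described and circles for the other tested pump and FXYD genes. Kcnj genes other than Kcnj10 and Kcnj16 are not drawn. Of the genes drawn, Kcnj16 lies lowest at -0.85, the interval of Atp1b1 includes 0, and that of Atp1b3 lies above 0.

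Among 13 other genes of the inward rectifier family, 8 were tested, 3 fell, 1 rose and 4 missed the threshold (median log2 fold change -0.27). Of all tested genes 46.2% were called, a share close to that of these 8. Kcnj15, which encodes Kir4.2, the partner of Kir5.1 in the proximal tubule, fell from 293 ± 68.8 to 82.9 ± 21.4 CPM (log2 fold change -1.82, adjusted p = 1.05e-05). Kcnj12 fell from 1.65 ± 0.0649 to 0.408 ± 0.204 CPM and Kcnj5 from 14.7 ± 1.45 to 8.71 ± 1.71 CPM. Kcnj11, a subunit of ATP-sensitive potassium channels, rose from 0.805 ± 0.169 to 1.42 ± 0.116 CPM (adjusted p = 0.0132, and 0.0671 with the term for Y-linked counts). Kcnj1, the apical ROMK channel of the thick limb, was at 216 ± 16.1 and 181 ± 27.2 CPM (log2 fold change -0.25, adjusted p = 0.0548), and -0.51 (adjusted p = 0.0191) with that term. With a term for the range of the mouse number it was also called, at -0.34 (adjusted p = 0.000810).

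The next list holds 18 transporters and channels that use the sodium gradient or work beside the basolateral potassium channels. Of these, 14 fell, 1 rose and 3 missed the threshold (median log2 fold change -0.64). Among all tested genes 22.7% fell and 23.5% rose. The thiazide-sensitive cotransporter Slc12a3, which shares the distal convoluted tubule with Kcnj10 and Kcnj16, fell from 377 ± 27.8 to 77.4 ± 15.9 CPM (log2 fold change -2.28, adjusted p = 8.43e-08). The phosphate transporter Slc34a1 fell by 3.39, the glucose transporter Slc5a2 by 4.06 and the epithelial sodium channel subunit Scnn1b by 0.78 on the log2 scale. Beside these, the 5 transcripts described had log2 fold changes from -0.85 to -0.11.

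Of 13 transcription factors and signalling genes known to act on the pump or these channels, 9 fell, 2 rose and 2 missed the threshold. Their median log2 fold change was -0.50, and over all tested genes 22.7% fell and 23.5% rose. Klhl3, the adaptor of a ubiquitin ligase for WNK kinases, fell by 1.64 on the log2 scale and Pcbd1 by 1.06, while Stk39, which encodes the kinase SPAK, rose by 0.82. Wnk1, a kinase gene, fell from 664 ± 49.6 to 279 ± 11.9 CPM. With the term for Y-linked counts, 13 of the transporters and channels fell and 0 rose, and 8 of these regulators fell and 1 rose (edgeR).

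**Figure D4:**
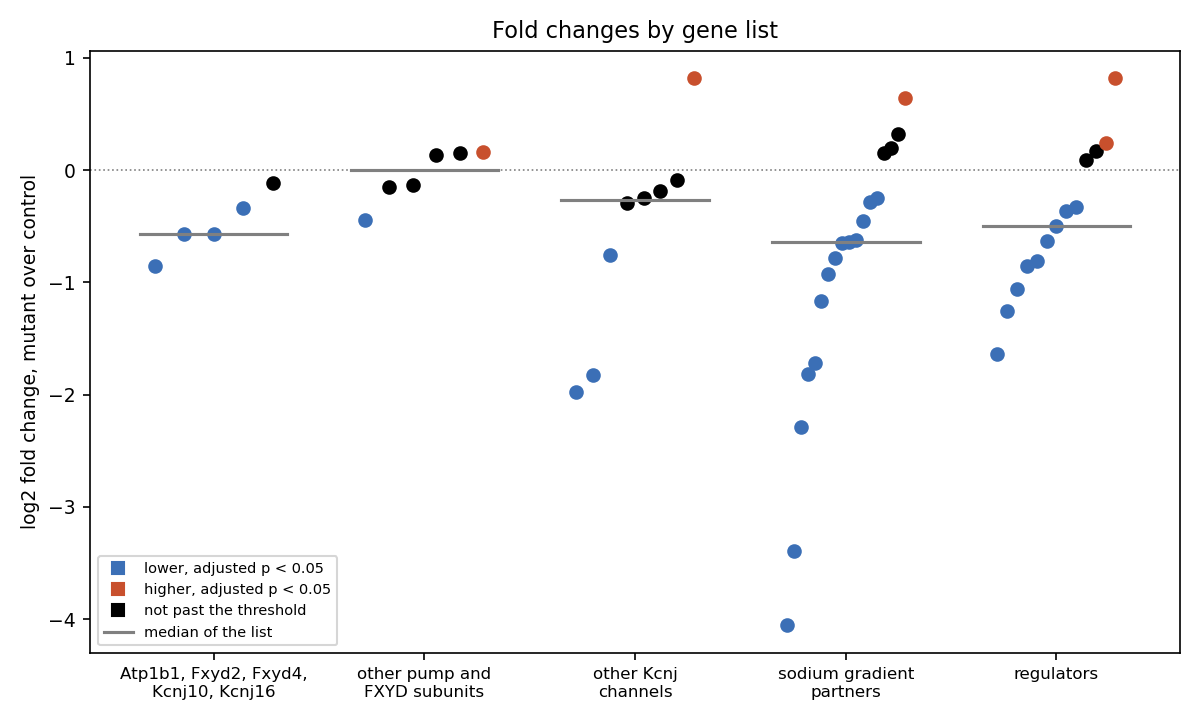
Log2 fold change (y axis, mutant over control) of each tested gene, by list, coloured by the edgeR call, with a line at the median of each list. The 5 transcripts described lie between -0.85 and -0.11, and the sodium gradient partners reach -4.06.

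Many segment markers also fell, to unlike extents, and their part in the results was not tested. Over all tested genes 22.7% fell and 23.5% rose (edgeR). All 10 proximal tubule markers and all 6 distal convoluted tubule markers fell, with median log2 fold changes of -2.94 and -1.72, as did 5 of 6 thick limb markers (median -1.06). Distal convoluted tubule markers summed to 828 to 1105 CPM in controls and 207 to 391 CPM in mutants, and proximal tubule markers to 4678 to 6483 CPM and 584 to 1103 CPM. Of 8 tested principal cell markers, 5 fell and 3 missed the threshold, at a median of -0.56 beside -0.33 for Fxyd4, which marks the same cells. Aqp2, the water channel of principal cells, was at 206 ± 82.2 and 277 ± 98.6 CPM, and its groups overlapped. Its log2 fold change of 0.42 turned to -0.44 with the term for Y-linked counts and with Mut1819 alone, the mouse with the lowest level (152 CPM). All 7 intercalated cell markers fell (median -1.28). All 5 endothelial markers fell (median -0.35) and 2 of 5 stromal markers fell, but with the term for Y-linked counts 1 endothelial and 0 stromal markers fell (medians -0.27 and -0.15, edgeR). All 5 macrophage markers rose (median 1.09), and adrenal markers summed to at most 3.75 CPM, with Cyp11b1 at 0. Of podocyte markers 4 of 5 fell, and of ureteric tip markers 2 of 5. Of 4 tested nephron progenitor markers 2 rose and 1 fell, while the 4 erythroid markers missed the threshold. Calls also changed with the term for Y-linked counts in the thick limb, principal cell, ureteric tip, nephron progenitor, adrenal and erythroid lists.

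Transcripts with the most similar profile over the 8 mice were found by the root mean square difference of log2 CPM, each gene centred on its own mean, among 13361 genes. For Kcnj16 they were Dhrs4 (0.05), Selenbp1 (0.05) and Ctbs (0.06), against a median of 0.49 over all genes. For Kcnj10 they were Pgam2 (0.08), Magi2 (0.08) and Nudt4 (0.08), against a median of 0.38. For Fxyd2 they were Gm14327 (0.07), Tm2d2 (0.07) and D10Jhu81e (0.08), and for Fxyd4 Zfp799 (0.03), Slc38a10 (0.04) and Ergic3 (0.04). For Atp1b1 they included the complex I subunit gene Ndufa3 (0.05) and Usp2 (0.06). None of those named is a pump, FXYD or Kcnj gene, and the difference between the groups enters each of these distances.

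Fold changes within ranges of mouse numbers had the same sign for the 4 transcripts that fell. Fxyd2 differed by -0.83, -0.58 and -0.55 on the log2 scale in the 1300, 1400 and 1800 ranges, Fxyd4 by -0.41, -0.33 and -0.32, Kcnj10 by -0.76, -0.28 and -0.87 and Kcnj16 by -0.67, -1.04 and -1.02. Atp1b1 differed by -0.22, 0.09 and -0.38, so its sign turned in the 1400 range, which holds Mut1453 and Mut1454. The ranges hold 1 control and 1 mutant, 1 and 2, and 2 and 1, and were not tested one by one. All mutants of the 1300 and 1400 ranges had high Y-linked counts and their controls did not. Sex and genotype therefore cannot be told apart within these ranges, and Mut1819 is the only mutant of the 1800 range. A term for the range does not account for Y-linked counts. With the range as a term in the edgeR fit, the adjusted p was 2.10e-05 for Fxyd2, 0.00476 for Fxyd4, 0.000255 for Kcnj10, 2.84e-06 for Kcnj16 and 0.133 for Atp1b1.

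**Figure D5:**
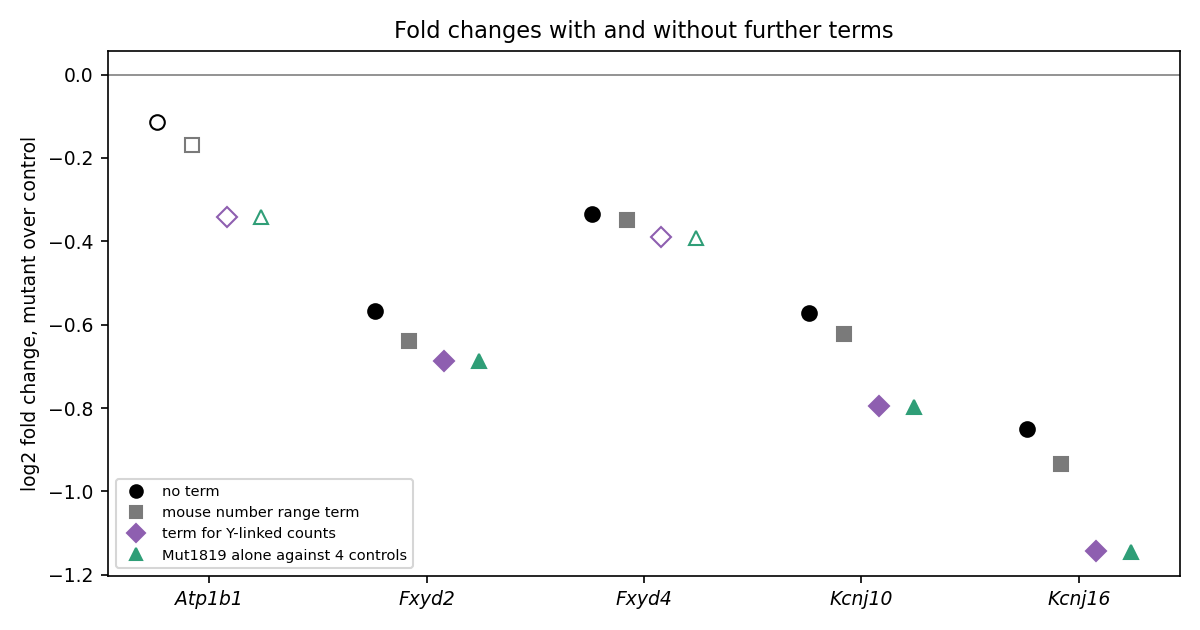
Log2 fold change (y axis, mutant over control) of the 5 transcripts without a further term, with a term for the range of the mouse number, with a term for Y-linked counts and with Mut1819 alone against the 4 controls; filled symbols have an adjusted p under 0.05 in edgeR. Atp1b1 is open in all 4 fits, Fxyd4 is open in the last 2, and Fxyd2, Kcnj10 and Kcnj16 are filled throughout.

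Atp1b1 and its neighbour Nme7, on the opposite strand, share 575 exonic bases at the ends of both genes in GENCODE M21. How reads in these bases were counted is not given. Nme7 had 15.9 ± 0.986 CPM in controls against 2264 for Atp1b1, and 12.6 CPM in mutants. In the authors' deposited table the log2 fold changes were -0.11 for Atp1b1 (adjusted p = 0.368), -0.56 for Fxyd2, -0.33 for Fxyd4, -0.56 for Kcnj10 and -0.84 for Kcnj16, and the last 4 had adjusted p-values of at most 0.00334.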

How the data were processed

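RNA was isolated from renal cortex of 8 mice with a Qiagen kit and a DNase step, per the labels' protocols. The submitters' processing notes name TopHat2, Bowtie2, HTSeq, DESeq2 and build mm10. Whether counting used strand, and which annotation, is not given in the sources used here. Each gene has, per the file headers, raw read counts and FPKM for every mouse. The deposited table also gives the authors' mean normalised signal per group, not used here, their log2 fold change and their p-value.

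The test was edgeR 4.0.16 under R 4.3.3 on the counts (filterByExpr, TMM, quasi-likelihood, Benjamini-Hochberg at 0.05), which left 15028 genes. Values per gene are TMM-scaled CPM. Ratios of FPKM between members and the count share were tested with two-sided exact permutation tests over 70 assignments (SciPy 1.17.1). Positions came from GENCODE M21. The pipeline was tested on simulated data, where it found 16% of 1.25-fold, 68% of 1.5-fold and 88% of 2-fold changes. Only 50 genes were changed at each fold size there, with 14898 genes tested, and of 151 calls 15 were false. In the data 6948 genes were called, so these rates need not hold for them. Small changes can still be missed and some calls can be wrong. Alternatives were DESeq2 1.42.0, limma-voom (limma 3.58.1), other scalings and filters, terms for Y-linked counts and number range, and each mouse left out.

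Members and gene lists were chosen with earlier results of these data known. All 122 genes of 18 lists matched by symbol or synonym, and 11 stand on both a pathway and a marker list. Genes given by name were the 5 members, 8 other subunits, Tfam, up to 4 genes per list with the smallest adjusted p, and the 3 most similar profiles per member, and not all that this takes are named. Kcnj1, Nme7, Aqp2 and markers named for their low level were chosen after their values were seen. Protein motifs of the plan were not searched. Some genes, and the comparisons and list entries that need them, are not reported here.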

Additional observations from a re-analysis of the deposited data

How the results depend on the processing

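The 5 fold changes kept their sign in all 17 alternatives, with ranges from -0.34 to -0.04 for Atp1b1, -0.69 to -0.51 for Fxyd2, -0.39 to -0.28 for Fxyd4, -0.80 to -0.49 for Kcnj10 and -1.14 to -0.74 for Kcnj16. Calls were equal but for Fxyd4, whose value was -0.39 both with the sex term (the term for Y-linked counts, adjusted p = 0.0656) and with Mut1819 alone (adjusted p = 0.0910). These 2 settings gave 3967 and 3684 called genes in place of 6948 (5512 to 7245 in the others) and left 1 of the 2 called other subunits. Leaving out 1 mouse gave 6085 to 7032 genes, 1 to 2 other subunits, -0.18 to -0.04 for Atp1b1, -0.63 to -0.51 for Fxyd2, -0.39 to -0.28 for Fxyd4, -0.65 to -0.49 for Kcnj10 and -0.92 to -0.74 for Kcnj16. With 3 mice against 4, exact tests cannot go below 0.0571, so the share difference (-0.0685 to -0.0443 percentage points) could not pass, while its direction held. Values near 0 changed sign: Fxyd7 was 0.13 with limma-voom, 0.0086 with the range term and -0.44 to 0.16 without 1 mouse, and the Fxyd2 to Kcnj10 ratio was -0.0081 with FPKM + 1 and between -0.10 and 0.10 without 1 mouse. The cause was not tested. No paired analysis was made, since which mice share a litter is not given. Depth limits Fxyd3, Fxyd7 and Atp1a4.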
